A study of Homo sapiens with 24 samples.

Results

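The genes described here encode the RZZ complex and the spindle assembly checkpoint, and their transcript levels were followed in a human kidney cancer cell line and a human kidney epithelial cell line after knockdown of KDM5C, YY1 or both. There were 10 such genes, listed by symbol and matched to the Ensembl identifiers of the 60675 genes counted. KNTC1, ZW10 and ZWILCH encode the RZZ complex (Rod, Zw10 and Zwilch, with KNTC1 encoding Rod). SPDL1 encodes the dynein adaptor Spindly. BUB1, BUB1B (BubR1), BUB3, MAD2L1 (Mad2), MAD1L1 (Mad1) and TTK (Mps1) encode the checkpoint proteins. KNTC1 is a gene that the study itself picked out on the ACHN libraries, so its fall there is a description and not independent evidence. The same holds for differences between the lines that include this fall. All 10 genes passed the filter on low counts in every comparison, with a lowest count of 388 for ZW10 and a highest of 4194 for BUB3.

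RNA was sequenced from 24 libraries in 8 groups of 3 replicates. ACHN is a human renal cancer cell line labelled as clear cell renal cell carcinoma, and HK2 is a line of human kidney proximal tubular epithelial cells. In each line the groups were shNC (a control hairpin), shKDM5C (a hairpin against the histone demethylase KDM5C), shYY1 (a hairpin against the transcription factor YY1) and Dsh (KDM5C and YY1 knocked down together). All groups carried stable lentiviral hairpins and were grown in DMEM with fetal bovine serum; no time after infection is given in the labels. Dsh cells were made from YY1-depleted cells by a second infection with a KDM5C hairpin plasmid that also carries GFP, and were selected for puromycin resistance and green fluorescence, so that the Dsh group differs from the others by this second infection too. Each target had more than 1 hairpin in the study, and the labels do not say which was used for these libraries or whether replicates were separate infections or cultures, so the p-values measure the spread between libraries, which may be technical.

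The spindle assembly checkpoint holds a dividing cell in metaphase until each kinetochore, the protein assembly on a centromere, is attached to spindle microtubules. Unattached kinetochores recruit TTK kinase, which brings BUB1 and BUB3 to the outer kinetochore. BUB1, together with the RZZ complex, recruits the MAD1L1-MAD2L1 template, and MAD2L1 joins BUB1B, BUB3 and CDC20 in the mitotic checkpoint complex that inhibits the anaphase-promoting complex. RZZ and Spindly build the fibrous corona and bring dynein, which strips checkpoint proteins from attached kinetochores. Many of these genes are transcribed mostly in G2 and mitosis, so their RNA in a culture follows the share of dividing cells. In bulk RNA, fewer dividing cells and less RNA per cell cannot be told apart.

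In the GRCh38 coordinates of the count tables, the RZZ genes were KNTC1 (ENSG00000184445) at chr12:122527246-122626396 on the plus strand, ZW10 (ENSG00000086827) at chr11:113733187-113773811 on the minus strand, and ZWILCH (ENSG00000174442) at chr15:66504959-66550128 on the plus strand. The adaptor gene was SPDL1 (ENSG00000040275) at chr5:169583634-169604778 on the plus strand. The genes that act first at the kinetochore were TTK (ENSG00000112742) at chr6:80003887-80042527 on the plus strand, BUB1 (ENSG00000169679) at chr2:110637698-110678114 on the minus strand, and BUB3 (ENSG00000154473) at chr10:123154277-123170467 on the plus strand. Those of the Mad and BubR1 proteins were MAD1L1 (ENSG00000002822) at chr7:1815793-2233243 on the minus strand, MAD2L1 (ENSG00000164109) at chr4:120055608-120067074 on the minus strand, and BUB1B (ENSG00000156970) at chr15:40161023-40221136 on the plus strand. Counts cover all annotated exons of a gene, from 2992 bases in ZW10 to 11325 bases in KNTC1.

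Of the 10 genes, 7 have a promoter in the RefSeq promoter table for GRCh38.p14 (ZW10, ZWILCH, SPDL1, BUB1, BUB1B, MAD2L1 and MAD1L1). SPDL1 has 2, of which the one listed first is shown. Shown here are the stretches from 120 bases before to 30 bases after the start of SPDL1, BUB1, BUB1B and MAD2L1, because these genes had the largest departures from additive knockdown effects in ACHN cells. They are written 5′ to 3′ on the strand of the gene, with capitals marking the letters of the cell cycle genes homology region (CHR, TTTGAA or TTCGAA) and of the CCAAT box on either strand. The SPDL1 stretch is chr5:169583653-169583802 (plus strand), the BUB1 stretch chr2:110678034-110678183 (minus strand), the BUB1B stretch chr15:40160949-40161098 (plus strand) and the MAD2L1 stretch chr4:120066819-120066968 (minus strand).
SPDL1: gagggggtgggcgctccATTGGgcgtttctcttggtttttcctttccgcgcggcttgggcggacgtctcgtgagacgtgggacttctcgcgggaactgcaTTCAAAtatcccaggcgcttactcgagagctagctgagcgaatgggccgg
BUB1: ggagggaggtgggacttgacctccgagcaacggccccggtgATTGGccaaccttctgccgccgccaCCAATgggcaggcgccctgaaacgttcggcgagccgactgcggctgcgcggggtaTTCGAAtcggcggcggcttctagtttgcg
BUB1B: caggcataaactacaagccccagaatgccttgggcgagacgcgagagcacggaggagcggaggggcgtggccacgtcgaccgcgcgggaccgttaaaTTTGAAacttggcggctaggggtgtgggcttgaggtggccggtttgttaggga
MAD2L1: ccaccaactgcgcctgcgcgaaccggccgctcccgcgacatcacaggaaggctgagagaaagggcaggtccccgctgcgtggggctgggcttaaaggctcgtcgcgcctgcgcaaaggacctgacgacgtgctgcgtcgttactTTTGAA
Each of the 4 stretches holds a CHR within 30 bases of the RefSeq start. The CHR letters begin at position -20 in SPDL1 (on the opposite strand), 2 in BUB1, -23 in BUB1B and 25 in MAD2L1, counted from 1 at the RefSeq start. All 4 RefSeq starts lie inside the Ensembl genes given above, which begin further upstream. The SPDL1 and MAD2L1 stretches lie wholly within those genes, so positions counted from the Ensembl starts would differ. In the whole 300-base window, from 250 bases before to 50 after the start, these letters were also found in ZW10, whereas 16.4% of all 35116 promoters in the table hold them on either strand. That share counts promoters and not genes. The other listed promoter of SPDL1 held neither CHR nor CCAAT letters. CCAAT was found in ZW10, ZWILCH, SPDL1, BUB1 and MAD2L1 and in 34.6% of all promoters. The YY1 core AANATGGC was found in none of the promoters of these 7 genes and in 6.58% of all promoters. Such matches describe letters in a window and are not evidence of binding.

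Transcript levels were first compared between genes in the shNC cells, as library-scaled counts (CPM) per kilobase of exon. Lengths are those of all annotated exons and were not fitted to the transcripts expressed. The ranges show the spread between libraries and not errors in length, so the order of genes is a description. In ACHN cells SPDL1 was highest at 23.7 CPM per kb (22.9 to 24.7, n = 3), followed by BUB3 at 19.1 and BUB1 at 17.6, and none of these ranges overlapped. KNTC1 and BUB1B followed at 11.06 and 11.04 CPM per kb, with overlapping ranges. MAD2L1 (9.46), ZW10 (9.06) and ZWILCH (8.74 CPM per kb) came next, each overlapping its neighbour among these 3, and KNTC1 lay above the ranges of the other RZZ subunits. TTK at 6.82 and MAD1L1 at 5.15 CPM per kb were the lowest. HK2 cells kept SPDL1 (25.5), BUB3 (24.2) and BUB1 (19.6 CPM per kb) at the top, and MAD1L1 (6.96 CPM per kb) again came last. TTK stood at 18.5 CPM per kb in HK2 cells, with a range that overlapped that of BUB1B at 17.3, and above MAD2L1 at 13.4. The levels of KNTC1 (10.97), ZWILCH (10.3) and ZW10 (10.2 CPM per kb) overlapped in HK2 cells.

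**Figure D1:**
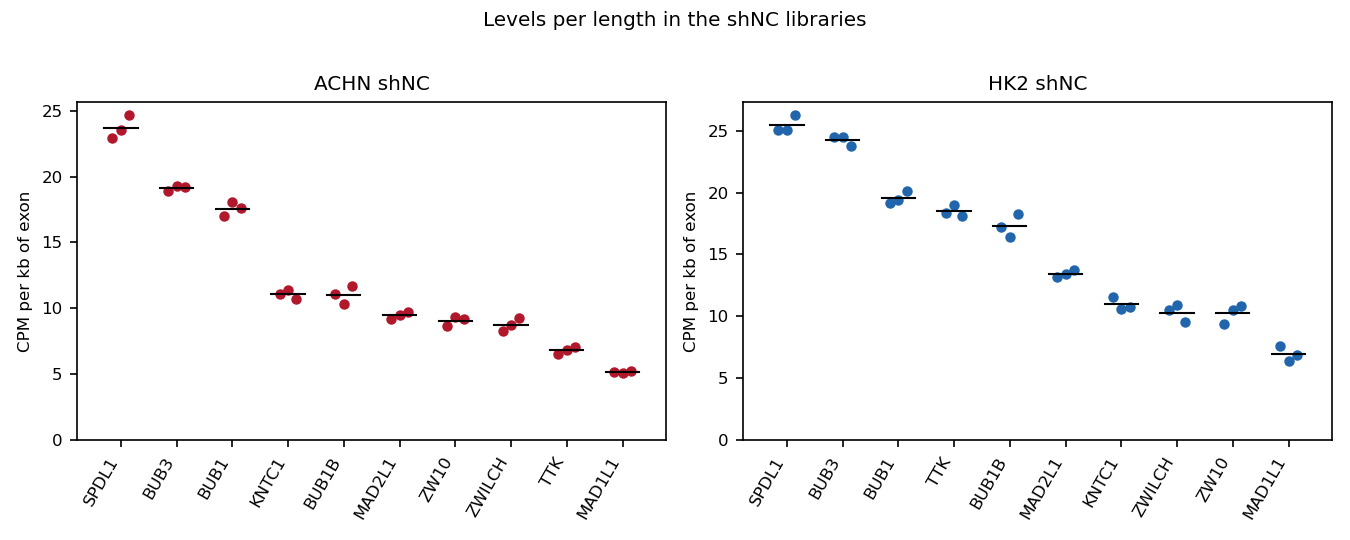
Levels per length in the shNC libraries of ACHN (left) and HK2 cells (right), in CPM per kilobase of exon; points are the 3 libraries, lines their means, and genes are ordered by mean. SPDL1, BUB3 and BUB1 lead in each line, and TTK moves from 6.82 in ACHN to 18.5 in HK2 cells.

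Between the lines, 9 of the 10 genes, all but KNTC1, were lower in ACHN than in HK2 shNC cells, where 76.6% of all genes tested were called in either direction and 38% lower (edgeR adjusted p under 0.05). TTK, the kinase at the top of the checkpoint, gave 29.8, 31.4 and 32.5 CPM in ACHN and 84.1, 86.9 and 82.8 CPM in HK2 shNC cells (log2 difference -1.43 ± 0.06 SE, edgeR adjusted p = 7.18e-19). The TTK groups lay far apart. BUB1B (log2 difference -0.64 ± 0.06, edgeR adjusted p = 6e-11) and MAD2L1 (-0.50 ± 0.05, edgeR adjusted p = 8.45e-10), both subunits of the mitotic checkpoint complex, came next. The smallest called differences were those of ZW10 (-0.17 ± 0.07, edgeR adjusted p = 0.0419) and SPDL1 (-0.09 ± 0.04, edgeR adjusted p = 0.0458), and both calls were lost with DESeq2. KNTC1 had nearly equal levels, with 126, 129 and 121 CPM in ACHN and 131, 120.1 and 122 CPM in HK2 cells (log2 difference 0.02 ± 0.04, edgeR adjusted p = 0.676). A list of 19 proliferation genes summed to 2229 to 2313 CPM in ACHN and 3805 to 3894 CPM in HK2 shNC cells, and its part in these differences was not tested. Cell line and anything else that differed between the sets of libraries cannot be told apart.

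Before the knockdowns were compared, the libraries were checked. Totals were 17910371 to 24272298 counts in ACHN and 15926561 to 18755684 counts in HK2 libraries. KDM5C fell from 69.7 to 70.7 CPM in ACHN shNC to 41.7 to 44.3 CPM in shKDM5C and 39.9 to 41.1 CPM in Dsh cells, and YY1 fell from 134 to 142 CPM to 72.7 to 79.5 CPM in shYY1 and 90.1 to 104 CPM in Dsh cells. In HK2 cells KDM5C fell from 189 to 195 CPM to 35.8, 67.9 and 67.0 CPM in shKDM5C and 65.2 to 71.4 CPM in Dsh cells, and YY1 from 201 to 213 CPM to 61.8 to 67.7 CPM in shYY1 and 72.2 to 75.1 CPM in Dsh cells. YY1 was thus less reduced in Dsh than in shYY1 cells, by 0.35 ± 0.06 (log2, edgeR adjusted p = 5.36e-05) in ACHN and 0.22 ± 0.06 (edgeR adjusted p = 0.00645) in HK2 cells. HK2 shKDM5C replicate 1 stood apart: its counts differed from those of the other replicates with a chi-square per degree of freedom of 130.1 and 124.1, against 1.931 to 6.992 for every other pair of replicates, and comparisons with HK2 shKDM5C cells are given with and without it. Of 8 renal epithelium markers, PAX8, KRT8, KRT18 and CDH2 were at 161 CPM or more in every library. KRT19 was at 387 to 913 CPM in ACHN and 15.7 to 60.1 CPM in HK2 cells, and EPCAM at 7.43 to 23.4 and 30.6 to 67.1 CPM. PAX2 varied, from 4.67 to 89 CPM in ACHN and 1.25 to 36 CPM in HK2 cells. CDH1 was at 3.91 to 49.4 CPM in ACHN and only 0.35 to 4.63 CPM in HK2 cells. Of 7 proximal tubule markers, GGT1 was abundant (69 to 132 CPM in ACHN and 145 to 344 CPM in HK2 cells), whereas LRP2, ANPEP, CUBN, AQP1, SLC34A1 and SLC5A2 were at most 3.33 CPM in either line. Of 4 markers of clear cell carcinoma in ACHN cells, VEGFA (54.4 to 119 CPM) and ANGPTL4 (4.84 to 274 CPM) were present, while CA9 and NDUFA4L2 were at most 0.161 and 1.95 CPM. Endothelial and leukocyte markers stayed at or below 1.69 CPM, except CD14 with up to 7.41 CPM in HK2 cells. Marker lists moved with the groups. The 8 renal epithelium markers summed to 3091 to 3140 CPM in ACHN shNC, 3636 to 3782 in shKDM5C, 3654 to 3708 in shYY1 and 2151 to 2355 CPM in Dsh cells, and to 2914 to 3013 CPM in HK2 shNC, 2472 to 3021 in shKDM5C, 2088 to 2208 in shYY1 and 1553 to 1669 CPM in Dsh cells. The 4 carcinoma markers summed to 124 to 125 CPM in ACHN shNC, 84.2 to 92.4 in shKDM5C, 117 to 125 in shYY1 and 336 to 353 CPM in Dsh cells, and to 77.7 to 91.9 CPM in HK2 shNC and 220 to 253 CPM in HK2 Dsh cells. In ACHN cells the list of 6 fibroblast markers summed to 582 to 634 CPM in shNC, 74.4 to 78.6 in shKDM5C, 189 to 197 in shYY1 and 135 to 152 CPM in Dsh cells. COL1A1 (47.8 to 602 CPM in ACHN) carried most of this sum, and PDGFRB was at 7.18 to 35.3 CPM. COL1A2 and COL3A1 had at most 2 counts in any ACHN library, and the part of these marker lists in the results below was not tested.

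**Figure D2:**
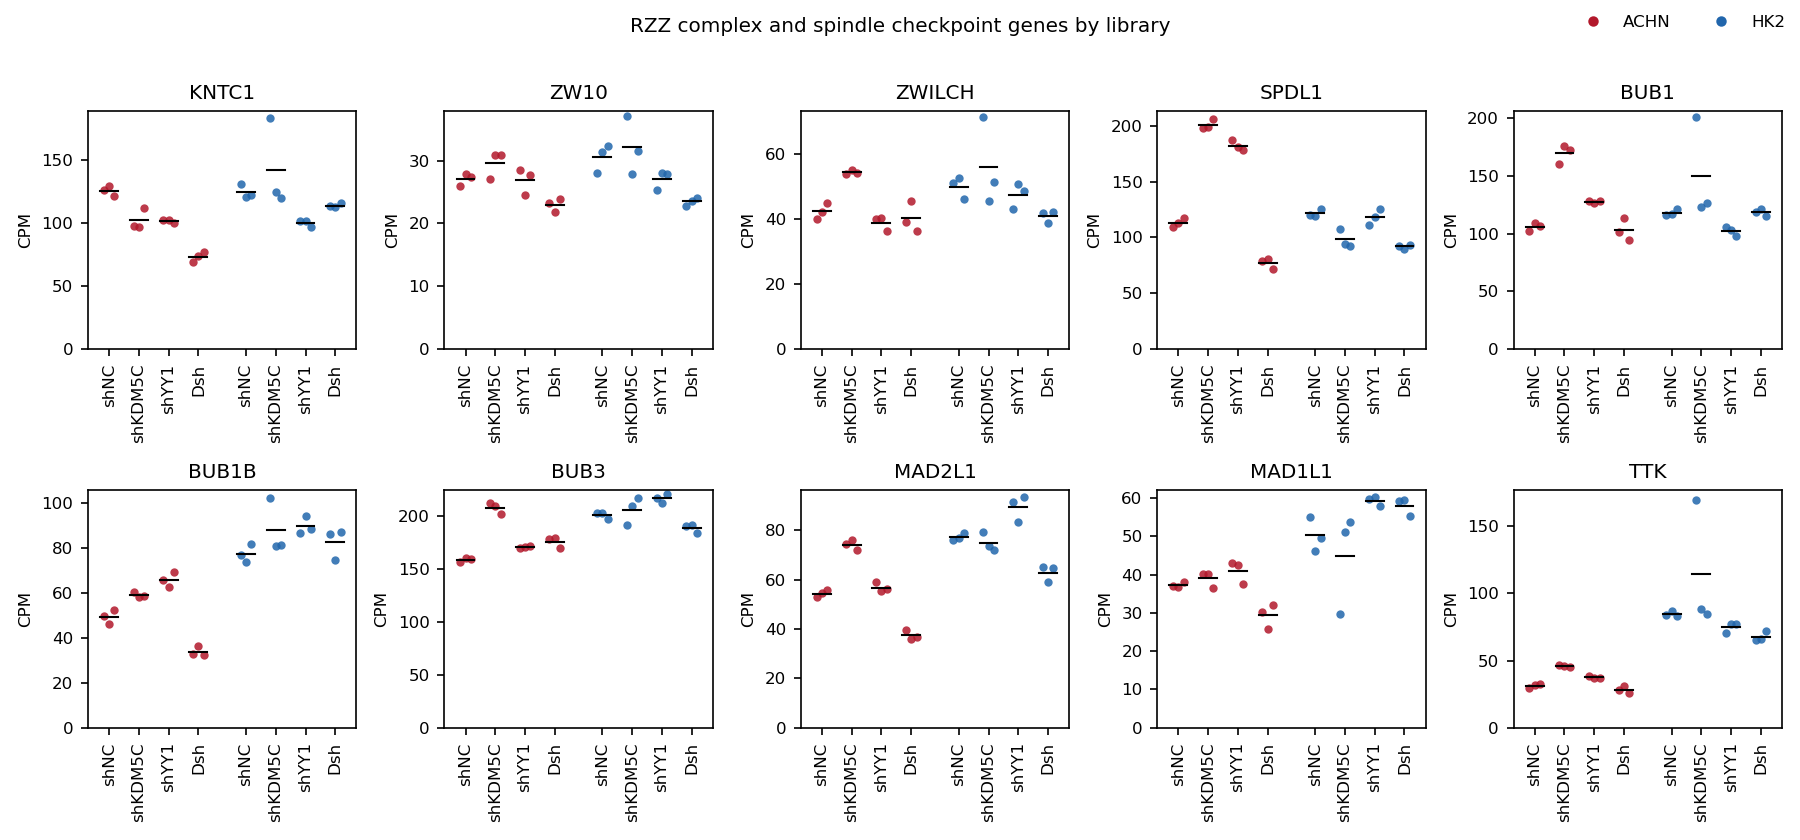
CPM of the 10 genes in each of the 24 libraries, on linear axes from 0, with 1 point per library (red ACHN, blue HK2) and a line at the mean of each group of 3. HK2 shKDM5C replicate 1 lies apart from its group, for example at 169.6 CPM for TTK against 88.5 and 84.6 CPM, and in ACHN cells the Dsh points of KNTC1, SPDL1, BUB1B and MAD2L1 lie below all others.

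The first question was what loss of KDM5C alone did in ACHN cells. KNTC1 fell, whereas ZWILCH, SPDL1 and most checkpoint genes rose. In all, 1 gene was called lower and 7 higher, where 56.6% of all genes tested were called in either direction (27.7% lower and 28.9% higher). Their median was 0.36 on the log2 scale, beside -0.01 for everything tested.

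Within the RZZ complex, KNTC1 gave 97.5, 96.3 and 112 CPM in shKDM5C cells against 126, 129 and 121 CPM in shNC cells (log2 fold change -0.31 ± 0.05, edgeR adjusted p = 3.46e-06). All shKDM5C libraries lay below the control range. ZWILCH went the other way, with 53.9, 55.2 and 54.1 CPM against 40.1, 42.2 and 44.8 CPM (0.35 ± 0.05, edgeR adjusted p = 3.71e-06), without overlap. Without strand in the counting, ZWILCH shares 158 exon bases (3.258% of its exon length) with the ribosomal protein gene RPL4 on the other strand, which had 11141 to 26964 counts, so its values are uncertain. ZW10, the third subunit, had 27.0, 30.9 and 30.9 CPM against 25.9, 27.9 and 27.5 CPM (0.11 ± 0.07, edgeR adjusted p = 0.157), with overlapping groups. SPDL1, the dynein adaptor that RZZ brings to the kinetochore, showed the largest rise of the set, from 109.6, 113 and 118 CPM to 198, 199 and 207 CPM (0.81 ± 0.04, edgeR adjusted p = 9.05e-16). BUB1, the scaffold kinase, rose from 103, 109 and 106 CPM to 160.4, 176 and 173 CPM (0.67 ± 0.04, edgeR adjusted p = 2.29e-13). Both sets of shKDM5C libraries lay entirely above the controls. TTK (0.55 ± 0.06), MAD2L1 (0.43 ± 0.05), BUB3 (0.37 ± 0.03) and BUB1B (0.25 ± 0.05) rose by smaller amounts, with edgeR adjusted p from 4.67e-10 to 0.000219. MAD1L1, the anchor of MAD2L1, had a log2 fold change of 0.05 ± 0.06 and was not called (edgeR adjusted p = 0.46). The proliferation list rose at the same time, to 2959 to 3099 CPM against 2229 to 2313 CPM in shNC cells (16 of 19 genes higher and 2 lower), and its part in these rises was not tested.

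Loss of YY1 alone in ACHN cells again lowered KNTC1 and raised SPDL1, and of the 10 genes 2 were lower and 5 higher, where 48.7% of all genes were called (24.5% lower and 24.2% higher). KNTC1 fell to 102, 102 and 99.9 CPM (log2 fold change -0.33 ± 0.04, edgeR adjusted p = 2.17e-09), below all control libraries. SPDL1 rose to 187, 181 and 178 CPM (0.66 ± 0.04, edgeR adjusted p = 2.67e-17), above all controls. Of the checkpoint genes, BUB1B rose to 65.5, 62.8 and 69.4 CPM against 49.6, 46.3 and 52.4 CPM (0.39 ± 0.05, edgeR adjusted p = 8.84e-08). BUB1B shares 10.21% of its exon bases with the readthrough gene BUB1B-PAK6, which had at most 2 counts. BUB1 (0.25 ± 0.04, edgeR adjusted p = 4.94e-07) and TTK (0.24 ± 0.06, edgeR adjusted p = 0.000756) also rose. The calls of ZWILCH (-0.15 ± 0.06, edgeR adjusted p = 0.0373) and BUB3 (0.08 ± 0.03, edgeR adjusted p = 0.0312) were close to the threshold, and each was lost when single libraries were left out. ZW10 (-0.03), MAD2L1 (0.04) and MAD1L1 (0.12) were not called. The proliferation list summed to 2592 to 2652 CPM, between the shNC and shKDM5C ranges.

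In ACHN Dsh cells KNTC1 was lower still, and SPDL1, BUB1B and MAD2L1, which had risen in shKDM5C cells, were below shNC. Against shNC, 6 genes were lower (KNTC1, ZW10, SPDL1, BUB1B, MAD2L1 and MAD1L1) and 1 was higher (BUB3), where 62.6% of all genes were called (32% lower and 30.7% higher). Their median was -0.28 on the log2 scale, beside -0.01 for everything tested.

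KNTC1 was lowest of all in Dsh cells, at 68.7, 73.3 and 76.5 CPM against 126, 129 and 121 CPM in shNC cells (log2 fold change -0.78 ± 0.05, edgeR adjusted p = 2.26e-10), which is 0.583 times the control level. Its Dsh libraries also lay below all single-knockdown libraries. The other RZZ subunits moved less. ZW10, which also serves in a Golgi to endoplasmic reticulum tether, gave 23.2, 21.8 and 23.9 CPM (-0.23 ± 0.08, edgeR adjusted p = 0.012), just below the control range, a call lost without ACHN shNC replicate 2 (edgeR adjusted p = 0.0527). ZWILCH gave 39.1, 45.5 and 36.4 CPM and overlapped the controls (-0.07 ± 0.08, edgeR adjusted p = 0.432). SPDL1, which had risen in each single knockdown, fell to 78.4, 80.7 and 71.7 CPM (-0.56 ± 0.05, edgeR adjusted p = 3.96e-08). Of the mitotic checkpoint complex, BUB1B fell to 32.6, 36.4 and 32.3 CPM (-0.55 ± 0.07, edgeR adjusted p = 1.47e-06) and MAD2L1 to 39.6, 35.9 and 36.9 CPM from 52.9, 54.5 and 55.7 CPM (-0.54 ± 0.06, edgeR adjusted p = 3.99e-07). Neither overlapped its controls. BUB3, their partner in that complex, was instead higher at 179, 179 and 170.3 CPM against 157, 160.3 and 159 CPM (0.15 ± 0.04, edgeR adjusted p = 0.0057). MAD1L1 fell to 30.2, 25.8 and 32.0 CPM from 37.1, 36.7 and 38.0 CPM (-0.34 ± 0.08, edgeR adjusted p = 0.000946). BUB1 (-0.04 ± 0.06) and TTK (-0.14 ± 0.08), which act upstream, overlapped their controls and were not called. The proliferation list summed to 1801 to 1894 CPM in Dsh cells, below the 2229 to 2313 CPM of shNC cells (14 of 19 genes lower and 3 higher), and its part and that of the renal epithelium and carcinoma markers in these falls were not tested. None of the 10 genes reached an absolute log2 fold change of 1.5, the size the study used as its threshold, which 8.42% of all genes tested did.

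**Figure D3:**
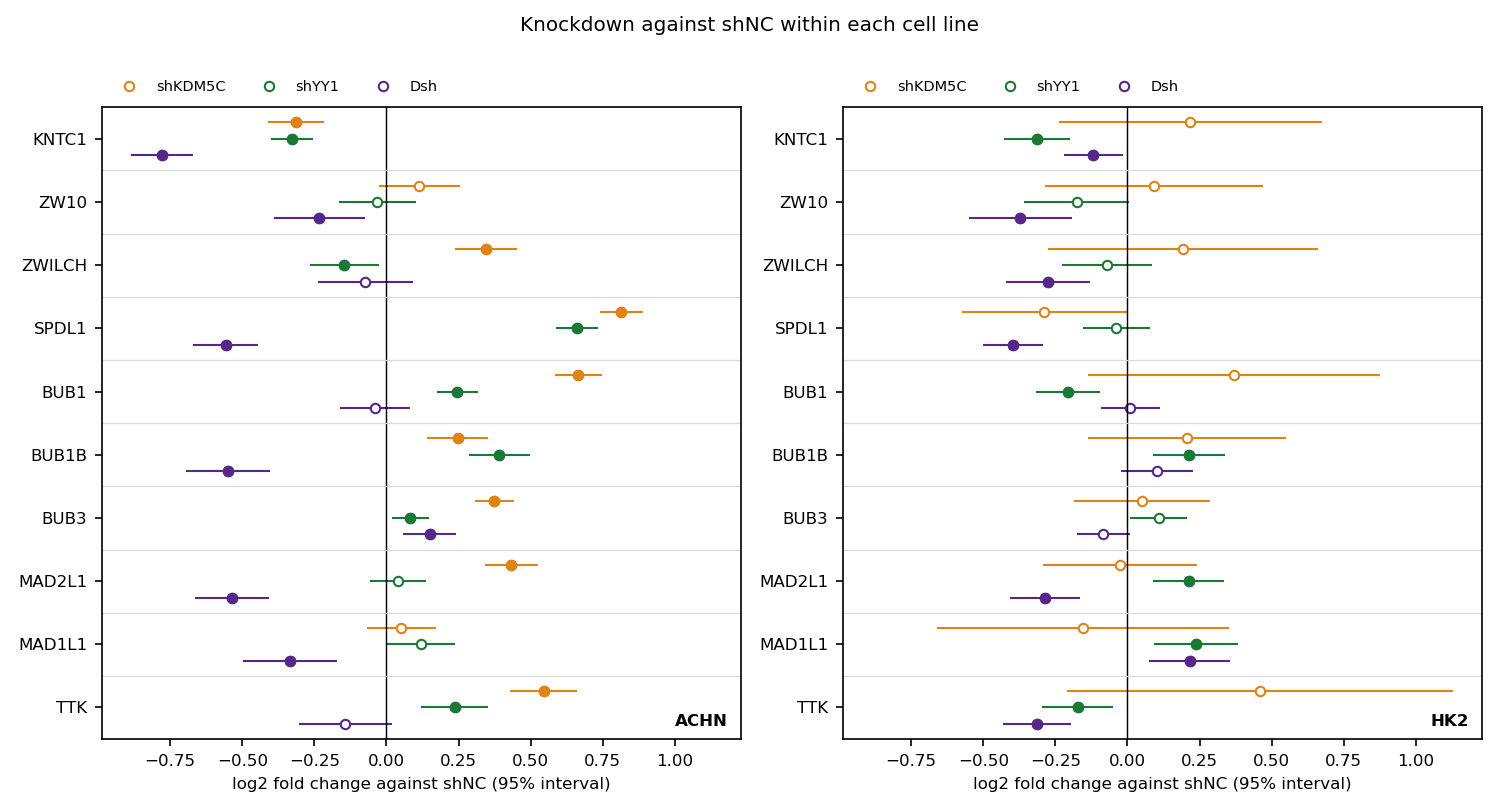
Log2 fold changes of the 10 genes against shNC in ACHN (left) and HK2 cells (right), with 95% intervals; filled points passed an edgeR adjusted p of 0.05 and open points did not. In ACHN cells SPDL1 is at 0.81 and 0.66 in the single knockdowns and at -0.56 in Dsh, while the wide shKDM5C intervals in HK2 cells include the replicate that stood apart.

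Direct comparison of the double with the single knockdowns was made with Dsh against each. All 10 genes were lower in Dsh than in shKDM5C cells, where 62.5% of all genes were called (30.9% lower), with log2 differences from -0.22 for BUB3 to -1.37 for SPDL1, and no gene's groups overlapped, which held for 67% of all genes. Against shYY1 cells 8 were lower, where 64.6% of all genes were called (32.7% lower). SPDL1 (-1.24 ± 0.05, edgeR adjusted p = 2.14e-12) and BUB1B (-0.96 ± 0.07, edgeR adjusted p = 1.36e-09) had the largest differences there. ZWILCH (0.05 ± 0.08) and BUB3 (0.05 ± 0.04) were not called. The call of ZW10 there was lost with total counts (edgeR adjusted p = 0.0637) and without ACHN shYY1 replicate 1 or 3 or ACHN Dsh replicate 2 (edgeR adjusted p 0.0659 to 0.102). Of the proliferation list, 18 of 19 genes were lower and 1 higher in Dsh than in shKDM5C cells (median log2 difference -0.85). Against shYY1 cells 16 were lower and 3 higher (median -0.70), and the part of this list was not tested. These comparisons of Dsh with the single knockdowns share libraries with each other and with those against shNC.

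Whether the effects of the knockdowns add up was tested with the interaction over the 12 ACHN libraries. It is the Dsh level minus both single-knockdown levels plus the shNC level on the log2 scale. The targets had interactions of their own, KDM5C at -0.42 ± 0.07 (edgeR adjusted p = 6.48e-06) and YY1 at 0.28 ± 0.07 (edgeR adjusted p = 0.00125). Dsh cells also had the second infection. Target levels and second infection therefore cannot be told apart from a departure of the effects from their sum. For 9 of the 10 genes Dsh was below the sum of the single effects, where 55.6% of all genes were called (28.8% lower). SPDL1 departed most, by -2.06 ± 0.06 (edgeR adjusted p = 5.34e-19), as it had risen in both single knockdowns and fallen in Dsh. BUB1B (-1.21 ± 0.08, edgeR adjusted p = 4.85e-12), MAD2L1 (-1.03 ± 0.07, edgeR adjusted p = 8.8e-12), BUB1 (-0.98 ± 0.07, edgeR adjusted p = 1.6e-11) and TTK (-0.95 ± 0.09, edgeR adjusted p = 1.73e-09) followed. BUB1B and MAD2L1 are inhibitory complex subunits, and BUB1 and TTK are checkpoint kinases. MAD1L1 (-0.53 ± 0.10), ZW10 (-0.34 ± 0.11), BUB3 (-0.33 ± 0.05) and ZWILCH (-0.30 ± 0.10) had values nearer to 0. The calls of ZW10 and ZWILCH were lost when libraries were scaled by total counts (edgeR adjusted p = 0.053 and 0.0833). KNTC1 alone was not called, with -0.16 ± 0.07 (edgeR adjusted p = 0.0673). Its single effects of -0.31 and -0.33 came near, in sum, to the -0.78 of Dsh, but the 95% interval of its interaction ran from -0.31 to -0.01. The KNTC1 interaction passed without the filter on low counts (edgeR adjusted p = 0.0427). It also passed without ACHN shKDM5C replicate 2 (edgeR adjusted p = 0.0257) and without ACHN Dsh replicate 3 (edgeR adjusted p = 0.0273). For BUB1 and TTK, the interaction set Dsh levels near the controls against rises in the single knockdowns. The median interaction of the 10 genes was -0.74, beside 0.01 over all genes tested. The proliferation list had a median of -1.04, with 17 of 19 genes lower and 0 higher. Medians of the other lists, described below, ran from -1.19 (chromosomal passenger complex) to -0.10 (tether genes that work with ZW10). The part of these lists in the interactions was not tested.

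**Figure D4:**
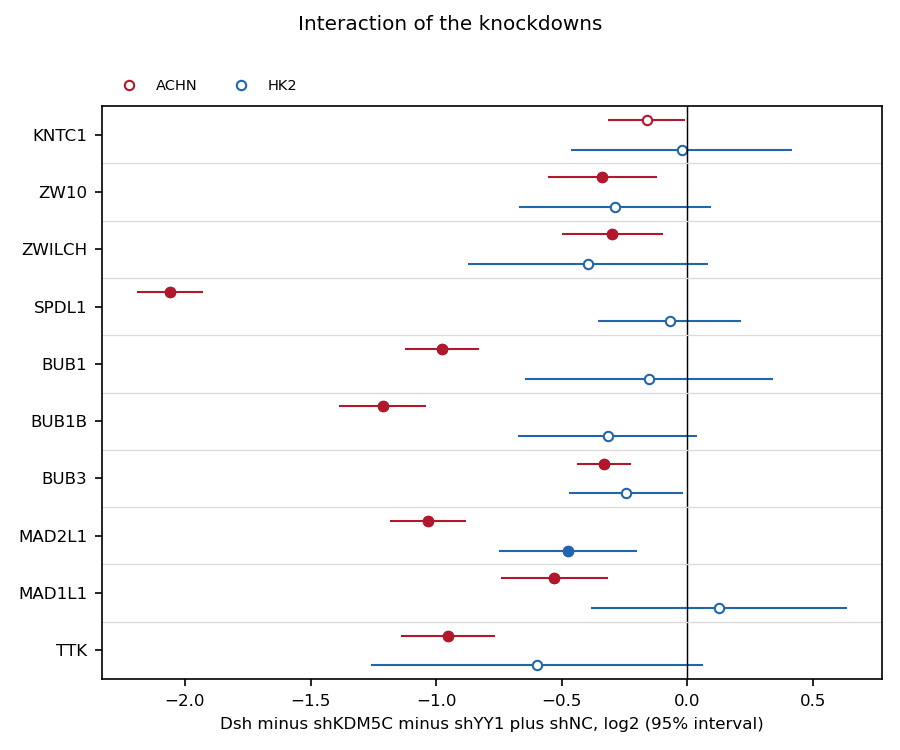
Interaction of the knockdowns for the 10 genes (Dsh minus shKDM5C minus shYY1 plus shNC, log2) with 95% intervals in ACHN (red) and HK2 cells (blue); filled points passed an edgeR adjusted p of 0.05. SPDL1 lies at -2.06 in ACHN cells and at -0.07 in HK2 cells.

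The same knockdowns were compared in HK2 cells. In HK2 shKDM5C cells 0 of the 10 genes were called, where 1.32% of all genes were called. DESeq2 also called 0 of them, and SPDL1 was the 1 gene at an unadjusted edgeR p under 0.05. Replicate 1 had the highest level of its group for 8 of the 10 genes, for example 183 CPM of KNTC1 against 124 and 119 CPM, 201 CPM of BUB1 against 123 and 127 CPM, and 71.4 CPM of ZWILCH against 45.5 and 51.5 CPM. MAD1L1 was instead low in it, at 29.7 CPM against 51.1 and 53.8 CPM. Without replicate 1, where 22.3% of all genes were called (10.9% lower), 1 of the 10 was called lower: SPDL1, with 94.4 and 92.7 CPM against 119.8, 119.5 and 126 CPM in shNC cells (log2 fold change -0.38 ± 0.05, edgeR adjusted p = 5.24e-06). KNTC1 then had -0.03 ± 0.05 and TTK 0.03 ± 0.06. In that fit SPDL1 fell in HK2 shKDM5C cells, whereas it rose in ACHN shKDM5C cells.

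YY1 loss in HK2 cells lowered KNTC1, BUB1 and TTK and raised BUB1B, MAD2L1 and MAD1L1, so that 3 genes were called in each direction, where 29.1% of all genes were called (14.7% lower and 14.3% higher). KNTC1 fell to 102, 101 and 96.8 CPM (log2 fold change -0.31 ± 0.05, edgeR adjusted p = 0.000133), below its controls. BUB1 gave 106, 103 and 98.2 CPM against 116, 117 and 122 CPM (-0.21 ± 0.05, edgeR adjusted p = 0.00582). TTK gave 70.8, 76.8 and 77.5 CPM (-0.17 ± 0.06, edgeR adjusted p = 0.032), also below its controls. MAD1L1 rose to 59.8, 60.4 and 57.8 CPM from 55.0, 46.3 and 49.6 CPM (0.24 ± 0.07, edgeR adjusted p = 0.0122), and MAD2L1 (0.21 ± 0.06, edgeR adjusted p = 0.00908) and BUB1B (0.21 ± 0.06, edgeR adjusted p = 0.00984) rose by similar amounts. SPDL1 overlapped its controls at 111, 118 and 126 CPM (-0.04 ± 0.06, edgeR adjusted p = 0.659). None of these 6 calls held when all 4 HK2 groups, replicate 1 of shKDM5C included, were fitted together. With 1 library left out, the call was lost in 4 of 6 fits for TTK, 2 for BUB1B, 1 for MAD1L1 and 1 for MAD2L1.

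In HK2 Dsh cells 6 genes were lower and 1 was higher than in shNC cells, where 49.8% of all genes were called (24.3% lower and 25.5% higher). All RZZ subunits and SPDL1 were among the lower genes. SPDL1 fell to 92.6, 90.04 and 93.0 CPM (log2 fold change -0.40 ± 0.05, edgeR adjusted p = 9.49e-08), ZW10 to 22.8, 23.6 and 24.1 CPM (-0.37 ± 0.09, edgeR adjusted p = 0.000687) and ZWILCH to 42.0, 38.8 and 42.1 CPM (-0.28 ± 0.07, edgeR adjusted p = 0.00182), all below their controls. KNTC1 was little lower, at 113, 113 and 115 CPM against 131, 120.1 and 122 CPM (-0.12 ± 0.05, edgeR adjusted p = 0.0494), and this call was lost with DESeq2 and in 5 of the 6 fits that left out 1 library. TTK (-0.31 ± 0.06, edgeR adjusted p = 3.45e-05) and MAD2L1 (-0.29 ± 0.06, edgeR adjusted p = 0.000149) were lower too. MAD1L1 was higher, at 59.3, 59.5 and 55.3 CPM (0.22 ± 0.07, edgeR adjusted p = 0.0101), a call lost without HK2 shNC replicate 2 (edgeR adjusted p = 0.078). BUB1 (0.01 ± 0.05) and BUB1B (0.10 ± 0.06), whose groups overlapped, and BUB3 (-0.08 ± 0.04) were not called. The proliferation list summed to 3017 to 3108 CPM in Dsh against 3805 to 3894 CPM in shNC cells (13 of 19 lower and 2 higher), and its part and that of the renal epithelium and carcinoma markers were not tested. With all 4 groups fitted together, 3 genes were lower and 0 higher. The calls of the RZZ genes KNTC1 (edgeR adjusted p = 0.591) and ZWILCH (edgeR adjusted p = 0.226) and those of TTK and MAD1L1 were then lost.

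Against shYY1 cells, HK2 Dsh cells had 4 genes lower and 2 higher, where 47.7% of all genes were called (22.9% lower and 24.8% higher). MAD2L1 gave 65.0, 59.0 and 64.6 CPM in Dsh and 91.4, 83.5 and 93.4 CPM in shYY1 cells (log2 difference -0.50 ± 0.06, edgeR adjusted p = 8.35e-07). Its groups did not overlap. SPDL1 (-0.35 ± 0.06), ZWILCH (-0.20 ± 0.08) and BUB3 (-0.19 ± 0.05) were lower as well, and KNTC1 (0.20 ± 0.05) and BUB1 (0.22 ± 0.06) were higher, with edgeR adjusted p from 2.32e-05 to 0.0359. The call of ZWILCH was lost in 4 of 6 fits that left out 1 library. KNTC1 was thus higher in Dsh than in shYY1 cells of HK2 and lower in those of ACHN. Against shKDM5C cells edgeR and DESeq2 called 0 genes with all libraries, where edgeR called 11.9% of all genes, with ZW10, ZWILCH and TTK (3 genes) at an unadjusted edgeR p under 0.05, and 5 were lower without replicate 1 (ZW10, ZWILCH, BUB3, MAD2L1 and TTK), where 43.3% of all genes were called (21% lower). The interaction in HK2 cells was called for 1 gene, MAD2L1, at -0.47 ± 0.13 (edgeR adjusted p = 0.0338), where 9.61% of all genes were called (4.4% lower), a call lost without the low-count filter and in 8 of 12 fits that left out 1 library. Without replicate 1, where 28.7% were called (13.7% lower and 15% higher), MAD2L1 was at -0.40 ± 0.09 (edgeR adjusted p = 0.00078), BUB3 at -0.27 ± 0.07 (edgeR adjusted p = 0.00274) and KNTC1 at 0.23 ± 0.08 (edgeR adjusted p = 0.019), the last with the opposite sign to its -0.02 ± 0.20 with all libraries.

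The difference of each effect between the lines was then tested itself. The targets themselves fell less in ACHN than in HK2 cells. Their differences (log2) were 1.02 ± 0.25 for KDM5C in shKDM5C (edgeR adjusted p = 0.0203) and 0.84 ± 0.07 for YY1 in shYY1 cells (edgeR adjusted p = 3.52e-11). For Dsh they were 0.71 for KDM5C and 0.99 for YY1. Cell line and depth of knockdown therefore cannot be told apart in the differences below. For the shKDM5C effect, SPDL1 differed most, by 1.12 ± 0.11 (effect in ACHN minus effect in HK2, log2, edgeR adjusted p = 0.000106), and MAD2L1 (0.47 ± 0.11, edgeR adjusted p = 0.0136) and BUB3 (0.33 ± 0.09, edgeR adjusted p = 0.0386) also differed, so that 3 genes were called, all higher in ACHN, where 11.9% of all genes were called (5.74% higher). Without HK2 shKDM5C replicate 1 the count was 6 higher and 1 lower, where 33.9% of all genes were called (18.6% higher and 15.4% lower), the lower gene being KNTC1 at -0.27 ± 0.07 (edgeR adjusted p = 0.00349), and SPDL1 was at 1.20 ± 0.06. The BUB3 call was lost in 9 of the 12 fits that left out 1 library (each ACHN and each HK2 shNC library), with total counts and without the low-count filter (edgeR adjusted p 0.0708 to 0.15), and that of MAD2L1 without the filter (edgeR adjusted p = 0.0577). For the shYY1 effect SPDL1 (0.71 ± 0.06, edgeR adjusted p = 5.69e-10), BUB1 (0.46 ± 0.06, edgeR adjusted p = 5.16e-07) and TTK (0.42 ± 0.08, edgeR adjusted p = 0.000137) were called, where 33.1% of all genes were called (16.6% higher). For BUB1 and TTK these are rises in ACHN set against falls in HK2 cells. The shYY1 effect on KNTC1 was -0.33 in ACHN and -0.31 in HK2 cells, and the 95% interval of the difference ran from -0.13 to 0.13. For the Dsh effect 4 genes were called lower in ACHN and 1 higher, where 46% of all genes were called (22.7% lower and 23.3% higher). KNTC1 (-0.64 ± 0.07, edgeR adjusted p = 1.62e-08), BUB1B (-0.63 ± 0.10, edgeR adjusted p = 3.3e-06) and MAD1L1 (-0.53 ± 0.11, edgeR adjusted p = 0.000146) led. The difference of KNTC1 includes the ACHN fall for which the study picked it out, so it is not independent evidence. MAD2L1 followed at -0.23 ± 0.08 (edgeR adjusted p = 0.0272), a call lost with total counts and in 4 of 12 fits that left out 1 library, and BUB3 was higher at 0.25 ± 0.06 (edgeR adjusted p = 0.00107). SPDL1 fell in Dsh cells of both lines, and the difference of -0.14 ± 0.07 was not called (edgeR adjusted p = 0.113).

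**Figure D5:**
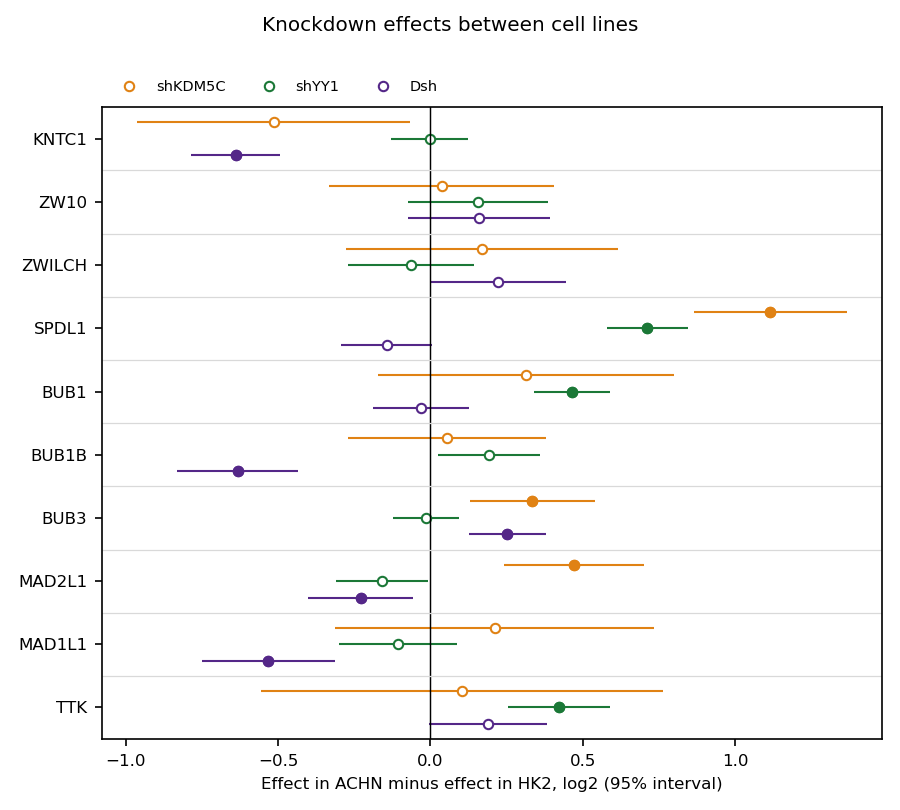
Effect of each knockdown in ACHN cells minus its effect in HK2 cells (log2) with 95% intervals; filled points passed an edgeR adjusted p of 0.05. SPDL1 lies at 1.12 for shKDM5C and 0.71 for shYY1, and KNTC1 at -0.64 for Dsh.

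Other genes of the same machinery were counted from lists of known members. Of all genes tested, 27.7% were lower and 28.9% higher in ACHN shKDM5C, 24.5% lower and 24.2% higher in ACHN shYY1, 32% lower and 30.7% higher in ACHN Dsh, and 24.3% lower and 25.5% higher in HK2 Dsh cells. Of the 9 genes of the KMN network (KNL1, MIS12 and NDC80 complexes), which form the outer kinetochore that holds microtubules, 7 were higher and 0 lower in ACHN shKDM5C cells, 3 were higher and 3 lower in shYY1 cells, and 1 was higher and 6 lower in Dsh cells (median log2 fold change -0.42, beside -0.01 over all genes). SPC25, of the NDC80 complex, had the largest fall, from a mean of 15.6 to 10.1 CPM in ACHN Dsh cells (log2 fold change -0.62 ± 0.12, edgeR adjusted p = 0.000137), and PMF1 of the MIS12 complex rose from 7.91 to 10.6 CPM (0.42 ± 0.12, edgeR adjusted p = 0.00486). PMF1 shares 23.29% of its exon bases with PMF1-BGLAP. In HK2 Dsh cells 5 KMN genes were lower and 1 higher, with PMF1 now falling (-0.84 ± 0.11, edgeR adjusted p = 6.83e-08) and NUF2 rising (0.43 ± 0.07, edgeR adjusted p = 6.36e-06). Of 7 corona genes and checkpoint regulators, 2 were lower and 0 higher in ACHN Dsh and 4 lower and 0 higher in HK2 Dsh cells. ZWINT, which links RZZ to KNL1, led in both lines, with means of 94.4 and 56.7 CPM in ACHN shNC and Dsh cells (-0.73 ± 0.06, edgeR adjusted p = 2.22e-09) and 148 and 101 CPM in HK2 cells (-0.54 ± 0.05, edgeR adjusted p = 3.74e-10). The chromosomal passenger complex of 4 genes, which corrects faulty attachments, had 4 genes higher in ACHN shKDM5C cells and 2 lower in ACHN Dsh cells. BIRC5 (survivin) fell there from 133 to 84.96 CPM (-0.64 ± 0.05, edgeR adjusted p = 1.77e-09). In HK2 Dsh cells 2 were lower and 1 higher, INCENP with the largest fall (-0.49 ± 0.06) and AURKB with the rise (0.26 ± 0.06).

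Downstream of the checkpoint, 17 genes of the anaphase-promoting complex and its targets gave 7 lower and 2 higher in ACHN Dsh and 10 lower and 1 higher in HK2 Dsh cells, where 32% and 24.3% of all genes were lower. ANAPC15, a subunit that promotes release of the checkpoint complex, had the largest fall in each line, from 12.5 to 2.87 CPM in ACHN (log2 fold change -2.11 ± 0.14, edgeR adjusted p = 3.24e-10) and from 7.49 to 2.87 CPM in HK2 cells (-1.37 ± 0.20, edgeR adjusted p = 1.11e-06). ANAPC15 shares 27.06% of its exon bases with LRRC51 on the other strand, so its values are uncertain. ANAPC11, the RING subunit, rose in ACHN (0.59 ± 0.09, edgeR adjusted p = 1.01e-05), and PTTG1 (securin) rose in HK2 Dsh cells (0.46 ± 0.07, edgeR adjusted p = 1.29e-06). Among 11 genes of dynein and its adaptors, the motor that SPDL1 and ZW10 bring to kinetochores, 4 were lower and 2 higher in ACHN Dsh cells, and 3 lower and 5 higher in HK2 Dsh cells, shares of lower genes near those of all genes. DYNC1LI2 (-0.50 ± 0.04) fell and DYNC1H1 (0.43 ± 0.05) rose most in ACHN cells, and DCTN1 (-0.34 ± 0.05) and NDEL1 (0.34 ± 0.08) did so in HK2 cells. Of 5 tether genes that work with ZW10 at the endoplasmic reticulum, 2 were lower and 1 higher in ACHN Dsh cells, and 1 lower and 2 higher in HK2 Dsh cells. NBAS rose from 62.3 to 89.8 CPM in ACHN (0.53 ± 0.05, edgeR adjusted p = 4.74e-08) and from 62.2 to 77.2 CPM in HK2 cells (0.32 ± 0.06, edgeR adjusted p = 2.08e-05), whereas RINT1 fell (-0.29 ± 0.06 and -0.44 ± 0.10). Of the proliferation list, E2F1 fell most (-0.96 ± 0.09) and TOP2A rose most (0.25 ± 0.05) in ACHN Dsh cells, and TYMS fell most (-0.95 ± 0.06) and CDK1 rose most (0.26 ± 0.05) in HK2 Dsh cells. TYMS shares 18.83% of its exon bases with ENOSF1 on the other strand, and RINT1 17.48% with EFCAB10. ANAPC11 shares 1.54% with ALYREF and NDEL1 0.9051% with MYH10, also on the other strand. The values of TYMS, RINT1, ANAPC11 and NDEL1 are therefore uncertain. In HK2 shKDM5C cells edgeR called 0 of the 72 genes on these lists, and 2 had an unadjusted p under 0.05. Without replicate 1, 5 were lower and 7 higher, where 10.9% of all genes were lower and 11.5% higher.

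Last, genes were ordered by how near their 6 log2 fold changes against shNC lay to those of KNTC1, by root mean square difference, over 9004 other genes with a mean of at least 10 CPM in each line. The nearest were ELP4 (0.128), TSEN15 (0.136), PPIL4 (0.140), TJP1 (0.153) and YWHAG (0.153), an order that describes these libraries and has no test. ELP4, an Elongator subunit, had -0.75 in ACHN Dsh cells, beside -0.78 for KNTC1, but -0.03 in ACHN shKDM5C cells, beside -0.31 for KNTC1. The order rests on HK2 shKDM5C replicate 1, without which the nearest were ENGASE (0.112), PYROXD2 (0.112), DHCR7 (0.114), THRA (0.127) and MMAB (0.131), and 0 of the first 5 genes remained, ELP4 then at rank 17 (0.156) of 9012. THRA and MMAB share 3.779% and 4.865% of their exon bases with NR1D1 and MVK on the other strand, so their values are uncertain. Of the other 9 RZZ and checkpoint genes, ZW10 was the nearest at rank 805 (0.333), ZWILCH stood at rank 2339 (0.418), and SPDL1 was furthest at rank 7236 (0.672). Without replicate 1, ZW10 stood at rank 1048 and SPDL1 at rank 7191.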

How the data were processed

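RNA-seq counts of 24 libraries were analysed. Reads, sequenced from both ends, were aligned by the authors using HISAT2 2.0.5, and pairs per gene were counted with featureCounts (1.5.0-p3 in the submitters' processing notes, 2.0.1 in the table headers) on Ensembl release 84 (GRCh38), without strand. The deposited values are raw counts per gene. Reads in exon bases that a gene shares with an overlapping or antisense gene therefore cannot be told apart by strand. CPM levels used edgeR's TMM factors over all 24 libraries. Each comparison was fitted with edgeR 4.0.16 in R 4.3.3 (TMM, edgeR's low-count filter, quasi-likelihood F test, Benjamini-Hochberg adjustment over all genes tested, threshold 0.05) on the libraries compared. Fold changes come from these fits, and their standard errors (written after ±) from the F statistic. Interactions used the 12 libraries concerned. With 3 libraries per group an exact permutation test cannot go below 0.1. Depth was 15926561 to 24272298 counts, and no pair of replicates agreed within sampling noise. Alternatives were DESeq2 1.42.0, other scalings, other filters, all 4 groups in the fit, a replicate block, the study's fold threshold and each library left out. Steps were tested on simulated data. The members and lists were chosen with earlier results of these data known. Genes named beyond the 10 are the targets, the 5 genes nearest to KNTC1 (with and without HK2 shKDM5C replicate 1) and, from each list, the called gene with the largest fall and rise in each Dsh comparison.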

Additional observations from a re-analysis of the deposited data

Results flagged for a closer look

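A test of the difference itself set apart the effects of ACHN and HK2 cells in 11 cases, each given as the effect in ACHN minus the effect in HK2 on the log2 scale (edgeR, adjusted over all genes). For the shKDM5C effect these were SPDL1 at 1.12, MAD2L1 at 0.47 and BUB3 at 0.33. These were fitted with HK2 shKDM5C replicate 1 included. Without that replicate the differences of SPDL1 (1.20), MAD2L1 (0.53) and BUB3 (0.30) also passed, and ZWILCH (0.40), BUB1 (0.60), TTK (0.52) and KNTC1 (-0.27) passed too. The BUB3 call was lost in 9 of the 12 fits that left out 1 library (each ACHN and each HK2 shNC library). For the shYY1 effect they were SPDL1 at 0.71, BUB1 at 0.46 and TTK at 0.42. For the Dsh effect they were KNTC1 at -0.64 (which includes the ACHN fall for which the study picked it out), BUB1B at -0.63, MAD1L1 at -0.53, BUB3 at 0.25 and MAD2L1 at -0.23. SPDL1 was thus flagged for both single knockdowns and not for Dsh, where its difference was -0.14 (edgeR adjusted p = 0.113). The targets of the hairpins fell less in ACHN than in HK2 cells, so cell line and depth of knockdown cannot be told apart in these cases. Single values were not searched for outlying libraries within groups of 3.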

How the results depend on the processing

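The counts of genes lower and higher changed most with the study's fold threshold: requiring an absolute log2 fold change of 1.5 left 0 genes in every comparison, except 1 gene (SPDL1) in the ACHN interaction. In ACHN shYY1 cells the lower count was 1 in place of 2 with DESeq2, without the low-count filter and with all 4 groups in the fit. Fitting all 4 groups together, which brings in HK2 shKDM5C replicate 1, left 0 lower and 0 higher in HK2 shYY1 cells, 3 lower and 0 higher in HK2 Dsh cells, 2 lower and 0 higher in HK2 Dsh against shYY1, and 4 lower in HK2 Dsh against shKDM5C; why was not tested. Without the low-count filter, 1 gene was lower in HK2 Dsh against shKDM5C, 0 in the HK2 interaction and 1 higher in the difference of the shKDM5C effect between lines.

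With 1 library left out at a time, the lower count ranged from 1 to 2 in ACHN shYY1 cells, 0 to 1 in HK2 shKDM5C cells, 0 to 5 in HK2 Dsh against shKDM5C, 0 to 2 in the HK2 interaction, and 0 to 1 in the differences of the shKDM5C and shYY1 effects between lines. The higher count ranged from 0 to 2 in HK2 Dsh, 1 to 3 in HK2 shYY1, 0 to 1 in the HK2 interaction, 2 to 6 in the difference of the shKDM5C effect and 1 to 3 in that of the Dsh effect. The HK2 interaction of KNTC1 ranged from -0.14 to 0.23, passing with the opposite sign without HK2 shKDM5C replicate 1, and no other called value turned. Leaving out HK2 shKDM5C replicate 1, an alternative chosen after seeing the data, left 0 of the 5 genes nearest to KNTC1 among the 5 nearest. The ACHN lower counts ranged from 5 to 7 in Dsh against shNC and 9 to 10 in the interaction.

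Replicate numbers did not pair the libraries, as 0 of 18 correlations between same-numbered libraries in each line were over 0.1. With the replicate block 0 genes were lower in the HK2 interaction and 1 was higher in the difference of the shKDM5C effect, and no other count of the 10 genes moved by over 1.5 times. Over all genes, HK2 shKDM5C gave 106 lower and 108 higher genes, 0 and 0 with the block, 380 and 427 with DESeq2, 198 and 207 without the low-count filter and 592 and 748 with all 4 groups. With all 4 groups the all-gene counts also moved in HK2 shYY1 (2366 lower and 2305 higher to 557 and 370), HK2 Dsh (3945 and 4128 to 1922 and 1992) and HK2 Dsh against shYY1 (3653 and 3956 to 1776 and 1989). HK2 Dsh against shKDM5C, with 896 lower and 1005 higher, gave 1539 and 1585 with DESeq2, 324 and 473 with the block and 2435 and 2212 with all 4 groups. The difference of the shKDM5C effect went from 1109 lower and 1031 higher to 528 and 429 with the block, and the HK2 interaction from 890 to 1369 higher genes without the low-count filter.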
